A study of Homo sapiens with 6 samples.

Results

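The mitochondrial ribosomal protein genes are the nuclear genes whose symbols begin with MRPL or MRPS, named after the large and the small subunit of the mitochondrial ribosome. They were taken by name from a table of read counts, as every row with MRPL or MRPS followed by a number and, at most, the letter A, B or C. The rule found 77 of the 54261 symbols in the table. It reads names only, though this family was picked for study with earlier results of these data known. Of these, 76 had enough reads to be tested among 15391 genes, and MRPS24 did not.

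The mitochondrial ribosome translates the few messages of the mitochondrial genome, all of them for subunits of the respiratory chain and ATP synthase. Its rRNAs come from mitochondrial DNA, whereas all of its proteins are made in the cytosol and imported, so that the 2 genomes have to supply 1 particle. Many of its proteins have a counterpart in bacterial ribosomes, and many others were added in the mitochondrial lineage.

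PC9/GR is a lung cancer cell line, and RNA was profiled in it after knockdown of MYLK-AS1, an RNA transcribed antisense to the MYLK locus. The groups were 3 libraries of PC9/GR cells given an siRNA against MYLK-AS1 (si-MYLK-AS1) and 3 of PC9/GR cells given a control siRNA (si-NC). All 6 came from 1 cell line, and the labels do not say whether the repeats were separate cultures, so p-values measure the spread between these libraries, which may be technical. The sources used here give no dose, time of harvest or siRNA sequence.

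Total counts were 11055408, 9530332 and 7551303 in si-MYLK-AS1 replicates 1 to 3 and 8867818, 10246759 and 10978513 in si-NC replicates 1 to 3. MYLK-AS1 itself had 0, 5 and 4 reads in the knockdown libraries, against 20, 16 and 19 reads in the control libraries. The groups did not overlap, and a two-sided exact permutation test of CPM, which are counts scaled to a common library size, gave p = 0.1, the smallest that 3 against 3 allows. The log2 fold change of MYLK-AS1 (si-MYLK-AS1 over si-NC) was -2.43 with an SE of 0.60 (edgeR, adjusted p = 0.00326), and it rests on these few reads. The keratins KRT7, KRT8 and KRT18 lay between 2340 and 4677 CPM in every library, and PTPRC, CD3E and ALB, which mark leukocytes, T cells and hepatocytes, had no read. Of 8 epithelial markers, 1 was higher and 6 were lower in the knockdown, and their summed level was 7626 to 8229 CPM in the knockdown libraries against 11856 to 13879 CPM in the control libraries. Of 11 markers of other cell types 3 could be tested, and 1 was higher (CD68) and 1 lower (CD14) in the knockdown. Their summed level was 307 to 349 CPM in the knockdown libraries and 222 to 310 CPM in the control libraries, nearly all of it CD68, CD14 and COL1A1. The part of these markers in the results below was not tested.

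The summed level of the mitochondrial ribosomal protein genes differed between the groups by less than the spread between replicates. It was 4596 ± 290 CPM in the knockdown and 4551 ± 266 CPM in the control (SD, n = 3 each), or 101% of the control, and the two-sided exact permutation test gave p = 0.7, where 0.1 is the smallest possible. The 50 members of the large subunit summed to 2841 ± 202 CPM in the knockdown and 2835 ± 193 CPM in the control. The 26 members of the small subunit summed to 1736 ± 85.4 CPM in the knockdown and 1698 ± 75.1 CPM in the control. MRPS36, now known as a subunit of oxoglutarate dehydrogenase, was placed in neither subunit. A CPM value is a share of the library, so a change in the RNA content of the cells and a change in this share cannot be told apart.

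Within that sum, 15 members were higher and 8 were lower in the knockdown at an adjusted p under 0.05 in edgeR's quasi-likelihood test, and 53 passed in neither direction. The members called made up 30.3%, against 42.0% of all genes tested, of which 21.3% were higher and 20.7% lower. The changes were also small. The median log2 fold change (si-MYLK-AS1 over si-NC) of the members was 0.013, their quartiles were -0.14 and 0.26, and their range was -1.01 to 0.96. Over all genes tested the median was -0.0005 and the quartiles were -0.40 and 0.36. The median size of the change, whatever its direction, was 0.20 among the members and 0.38 among all genes. A change past 2-fold that also passed the test was found for 1 member, the lower MRPL34. Among all 15391 genes tested it was found for 646 higher and 1131 lower ones. Past 1.5-fold were 4 higher and 2 lower members, or 7.9% of those tested, against 26.2% of all genes tested. The 3 knockdown and 3 control libraries did not overlap in CPM for 30 members, or 39.5% of those tested, against 52.2% of all genes tested.

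**Figure D1:**
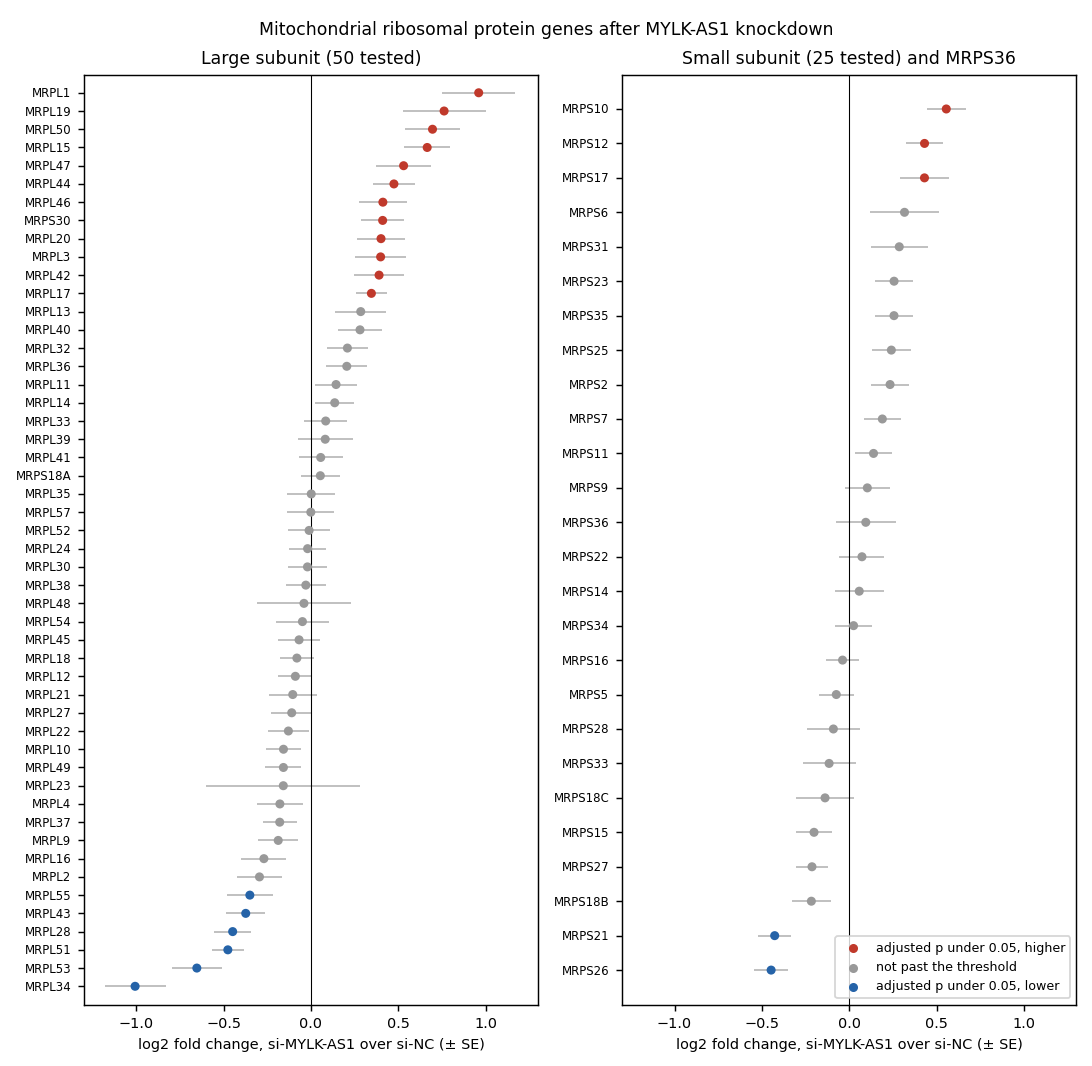
Log2 fold change (horizontal axis, si-MYLK-AS1 over si-NC) of each tested mitochondrial ribosomal protein gene with its standard error as a bar, for the large subunit on the left and for the small subunit with MRPS36 on the right, coloured by call. The called members lie at the ends of each panel, from -1.01 for MRPL34 to 0.96 for MRPL1, and the 53 members that passed in neither direction lie between them.

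The count of higher members changed when single libraries were left out. Without si-MYLK-AS1 replicate 3 it was 9, and without si-NC replicate 2 it was 8. It was 18 without si-MYLK-AS1 replicate 1 and 16 without si-NC replicate 3. The count of lower members stayed between 6 and 9 whichever library was left out. The share called among all genes tested also fell, from 42.0% to 37.5% without si-MYLK-AS1 replicate 3 and to 32.9% without si-NC replicate 2. Among the members the shares in these 2 refits were 23.7% and 19.7%, against 30.3% with all 6 libraries. Relative to the control mean, the median member deviated by -0.024, -0.033 and 0.16 (log2) in si-MYLK-AS1 replicates 1 to 3 and by -0.059, -0.023 and 0.083 in si-NC replicates 1 to 3. The third library of each group therefore stood above the other libraries of its group. In 13 of the 23 called members the call held under every one of 17 other ways of fitting the data, 7 of them higher (MRPL1, MRPL15, MRPL17, MRPL44, MRPL50, MRPS10 and MRPS12) and 6 lower (MRPL28, MRPL34, MRPL51, MRPL53, MRPS21 and MRPS26).

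Among the higher members, MRPL1 changed the most. Its product forms the mobile stalk beside the site through which used tRNA leaves the ribosome. The gene lies at chr4:77862520-77952790 on the plus strand (GRCh38). It had 12.1, 12.3 and 19.5 CPM in the knockdown libraries, against 7.79, 7.998 and 6.59 CPM in the control libraries. The groups did not overlap, and si-MYLK-AS1 replicate 3 stood well above the other knockdown libraries. The log2 fold change was 0.96 with an SE of 0.21 (edgeR, adjusted p = 0.00127), and 0.72 without that replicate.

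MRPL50, a protein of the large subunit without a bacterial counterpart, lies at chr9:101387633-101398614 on the minus strand. It had 22.1, 24.9 and 32.9 CPM in the knockdown libraries, against 15.0, 16.4 and 17.6 CPM in the control libraries. MRPL15, a counterpart of a bacterial large-subunit protein, had 56.3, 61.1 and 81.5 CPM in the knockdown libraries, against 39.7, 42.5 and 42.7 CPM in the control libraries. Neither gene overlapped between the groups, and in both the same knockdown library, replicate 3, was the highest. The log2 fold changes were 0.70 ± 0.16 for MRPL50 (SE, edgeR, adjusted p = 0.002) and 0.67 ± 0.13 for MRPL15 (adjusted p = 0.000592).

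MRPL44, an RNase III-like protein near the site where the new chain leaves the large subunit, had 55.2, 64.1 and 74.1 CPM in the knockdown libraries, against 43.7, 45.2 and 49.9 CPM in the control libraries. MRPL47, which lies in the same area, had 19.7, 19.2 and 26.3 CPM in the knockdown libraries, against 15.7, 14.2 and 15.1 CPM in the control libraries. MRPL17, another protein of the exit region and the most abundant of the higher members per length, had 190, 182 and 194 CPM in the knockdown libraries, against 145, 143 and 158 CPM in the control libraries. None of these 3 overlapped between the groups, and the knockdown libraries agreed most closely for MRPL17. Their log2 fold changes were 0.47, 0.53 and 0.35 (edgeR, adjusted p = 0.00455, 0.0122 and 0.00456). MRPL47 no longer passed without si-MYLK-AS1 replicate 3, without si-NC replicate 2 or with a GC curve fitted for each library.

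MRPL19 had the second greatest increase by fold but few reads. It had 6.94, 6.499 and 5.05 CPM in the knockdown libraries, against 3.45, 3.66 and 3.84 CPM in the control libraries. The groups did not overlap, and the log2 fold change was 0.76 with an SE of 0.24 (edgeR, adjusted p = 0.0156). The call was lost without si-MYLK-AS1 replicate 1 or 2, without si-NC replicate 1 or 2 and with a GC curve fitted for each library.

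The small subunit had 3 higher members of the 25 tested. MRPS10, a counterpart of a bacterial protein of the small-subunit head, lies at chr6:42206801-42217865 on the minus strand. It had 48.0, 51.6 and 51.2 CPM in the knockdown libraries, against 32.9, 35.2 and 34.4 CPM in the control libraries. The groups were far apart relative to their spread, and the log2 fold change was 0.56 with an SE of 0.11 (edgeR, adjusted p = 0.000753). MRPS12, the protein of the decoding centre, had 131, 132 and 120 CPM in the knockdown libraries, against 85.6, 88.9 and 109 CPM in the control libraries. These groups did not overlap either, with a log2 fold change of 0.43 and an SE of 0.11 (edgeR, adjusted p = 0.00316). The third, MRPS17, passed with a log2 fold change of 0.43 (edgeR, adjusted p = 0.0194), although its groups overlapped. Its call was lost without si-MYLK-AS1 replicate 2 or 3 and without si-NC replicate 1 or 2.

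The 5 remaining higher members, MRPL3, MRPL20, MRPL42, MRPL46 and MRPS30, had log2 fold changes of 0.39 to 0.41 and adjusted p-values of 0.0134 to 0.0341 in edgeR. MRPL3, whose values are given because its groups overlapped, lies close to the peptidyl transferase centre, MRPL46 belongs to the central protuberance, and MRPS30 is a large-subunit protein despite its name. MRPL3 had 37.3, 46.1 and 57.3 CPM in the knockdown libraries, against 37.6, 36.4 and 32.3 CPM in the control libraries, so its groups overlapped, as they did for MRPL42. Each of these calls depended on single libraries. Leaving out si-MYLK-AS1 replicate 2 ended those of MRPL3, MRPL42 and MRPS30, and leaving out si-MYLK-AS1 replicate 3 ended those of MRPL3, MRPL20, MRPL42 and MRPL46. Leaving out si-NC replicate 1 ended those of MRPL20, MRPL46 and MRPS30, si-NC replicate 2 those of MRPL3, MRPL42, MRPL46 and MRPS30, and si-NC replicate 3 those of MRPL3 and MRPL42. MRPL3 and MRPL42 also lost their calls with limma-voom and with a GC curve fitted for each library, and MRPL42 with a filter of 5 CPM in 3 libraries.

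Among the lower members, MRPL34 changed the most, and it was the member with the greatest change in either direction. It is the counterpart of a small basic protein of the bacterial large subunit, and its gene lies at chr19:17292609-17306843 on the plus strand. It had 17.0, 12.2 and 16.1 CPM in the knockdown libraries, against 23.0, 31.5 and 36.2 CPM in the control libraries. The groups did not overlap, and both of them were spread widely. The knockdown level was 49.8% of the control, with a log2 fold change of -1.01 and an SE of 0.18 (edgeR, adjusted p = 0.000183).

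MRPL53, at chr2:74471958-74473322 on the minus strand, belongs to the base of the stalk that recruits translation factors. It had 14.2, 14.3 and 15.2 CPM in the knockdown libraries, against 23.7, 20.9 and 24.0 CPM in the control libraries. MRPL51, at chr12:6491886-6493841 on the minus strand, is a mitochondria-specific protein of the large subunit. It had 110, 97.6 and 104 CPM in the knockdown libraries, against 142, 146 and 145 CPM in the control libraries. In both genes the groups were well separated and each was tight, with log2 fold changes of -0.65 ± 0.14 for MRPL53 (SE, edgeR, adjusted p = 0.00141) and -0.48 ± 0.091 for MRPL51 (adjusted p = 0.000445).

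MRPS21 and MRPS26 were the lower members of the small subunit. MRPS21, the counterpart of a bacterial protein near the path of the mRNA, had 90.1, 89.9 and 90.4 CPM in the knockdown libraries, against 113, 117 and 133 CPM in the control libraries. MRPS26, which has no bacterial counterpart, had 82.5, 84.6 and 88.6 CPM in the knockdown libraries, against 111, 110 and 127 CPM in the control libraries. The knockdown libraries of both genes lay close together and below all control libraries, with log2 fold changes of -0.43 and -0.45 and SEs of 0.096 and 0.097 (edgeR, adjusted p = 0.0017 and 0.0013).

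MRPL28, a counterpart of a bacterial large-subunit protein, had 108, 98.3 and 102 CPM in the knockdown libraries, against 121, 136 and 163 CPM in the control libraries. MRPL43, a mitochondria-specific protein, had 85.7, 71.2 and 81.4 CPM in the knockdown libraries, against 93.2, 97.0 and 118 CPM in the control libraries. MRPL55 had 35.7, 32.8 and 28.4 CPM in the knockdown libraries, against 36.9, 39.5 and 47.3 CPM in the control libraries. The groups did not overlap in these genes, though for MRPL55 the nearest libraries were about 1 CPM apart, and si-NC replicate 3 was the highest library in all 3. Log2 fold changes were -0.45, -0.37 and -0.35 (edgeR, adjusted p = 0.00278, 0.012 and 0.0428). MRPL43 lost its call without si-MYLK-AS1 replicate 2, and MRPL55 lost its call without si-MYLK-AS1 replicate 2 or 3 and without si-NC replicate 2 or 3. The call of MRPL55 also ended with DESeq2, with the repeat number as a block and with a GC curve fitted for each library.

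**Figure D2:**
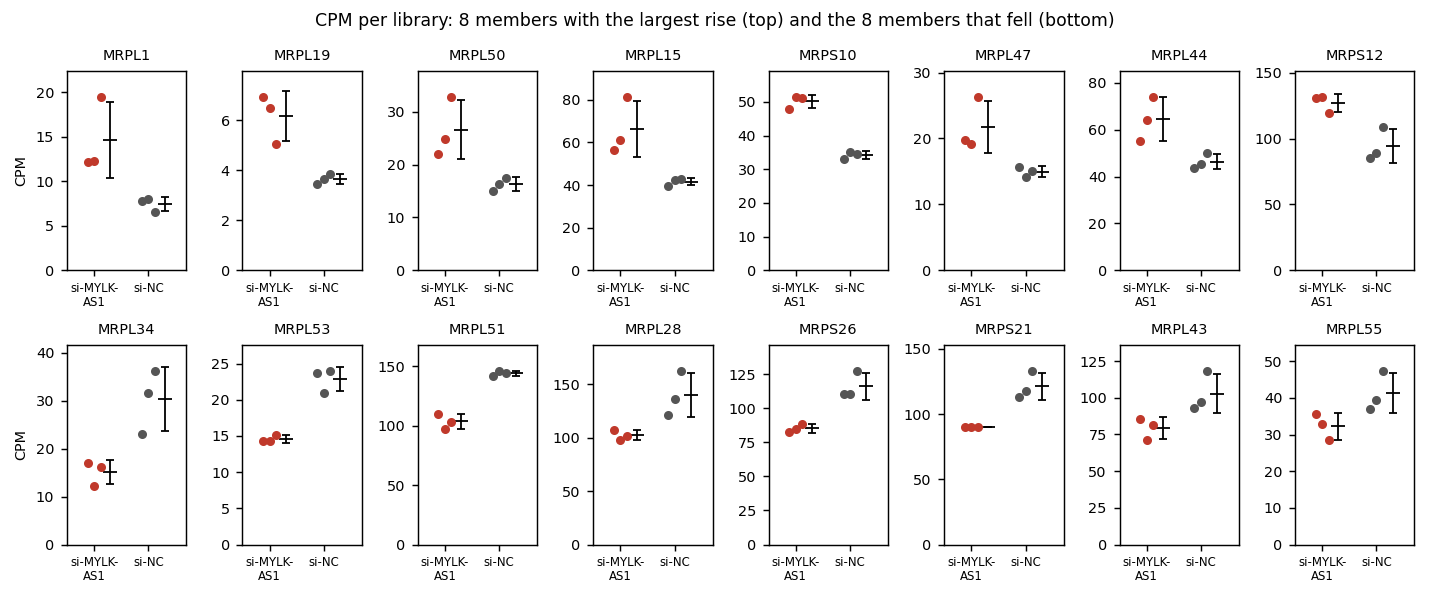
CPM in each library (points, linear axes from 0) of the 8 higher members with the greatest change in the upper row and of the 8 lower members in the lower row, with si-MYLK-AS1 left of si-NC and the mean ± SD beside each group (n = 3). No panel has a knockdown point within the range of its control points, with MRPL34 at 12.2 to 17.0 CPM in the knockdown and 23.0 to 36.2 CPM in the control.

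The promoters of the lower members are shown because 6 of the 8 hold the letters CCGGAAG or their reverse complement CTTCCGG, the core bound by ETS factors such as the GA-binding protein GABP. The windows searched run from 250 bases before to 50 after each RefSeq start site (GRCh38.p14, both strands), and are given for 68 of the 77 members. The stretches below run 5′ to 3′ on the strand of the gene, with a single copy of the word in capitals. MRPL51 and MRPS21 hold another copy, left in lower case within the stretch, and MRPL53 holds another copy outside the stretch shown.
MRPL51 (chr12:6493330-6493396, minus): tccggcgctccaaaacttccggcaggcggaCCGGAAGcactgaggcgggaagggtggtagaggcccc
MRPL53 (chr2:74472716-74472782, minus): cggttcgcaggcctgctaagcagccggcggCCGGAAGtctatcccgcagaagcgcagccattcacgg
MRPS21 (chr1:150293820-150293886, plus): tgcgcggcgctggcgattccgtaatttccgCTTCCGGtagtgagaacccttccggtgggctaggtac
MRPS26 (chr20:3045985-3046051, plus): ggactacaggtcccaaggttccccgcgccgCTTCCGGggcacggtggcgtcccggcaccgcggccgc
MRPL43 (chr10:100987479-100987545, minus): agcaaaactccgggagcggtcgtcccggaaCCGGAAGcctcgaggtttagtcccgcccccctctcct
MRPL28 (chr16:370509-370561, minus): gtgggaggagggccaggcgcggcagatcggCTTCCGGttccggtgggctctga

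The word was found in 29 of the 68 members with a window, or 42.6%, against 22.3% of all tested coding genes with a window. It was in 5 of 14 higher members, 6 of 8 lower members and 18 of 45 members that passed in neither direction. Among all tested genes it stood in 23.7% of the higher and 18.4% of the lower ones. A match is a description of these letters and not of a bound site.

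A second word, AAGATGGCG, is a core bound by the factor YY1 and is shown because it was in 5 of 14 higher members (MRPL42, MRPL46, MRPL50, MRPS10 and MRPS30) and in 0 of 8 lower members. It was also in 7 of 45 members with a window that passed in neither direction, and in 4.50% of all higher and 3.68% of all lower genes tested. It was in 13 of all 68 members with a window, or 19.1%, against 4.82% of all tested coding genes. The letters can also encode the start of a protein, since they contain an ATG. In 9 of those 13 members, and in 200 of 453 tested genes with the word, that ATG was an annotated start codon. The stretches of 3 higher members follow in the same form, with the ATG of each inside the capitals.
MRPS10 (chr6:42217832-42217882, minus): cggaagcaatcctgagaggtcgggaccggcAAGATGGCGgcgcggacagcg
MRPL46 (chr15:88467359-88467410, minus): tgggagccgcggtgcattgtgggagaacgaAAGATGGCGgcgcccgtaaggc
MRPS30 (chr5:44808930-44808976, plus): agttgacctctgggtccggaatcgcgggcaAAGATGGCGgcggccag

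The NRF1 core GCGCANGCG stood in 14 of the 68 members, or 20.6%, against 17.2% of tested coding genes. The E-box CACGTG, the core bound by MYC, stood in 9, or 13.2%, against 12.7%. The NRF1 core was in 3 of 14 higher members, 1 of 8 lower members and 10 of 45 members that passed in neither direction. The E-box was in 0 of 14 higher members, 0 of 8 lower members and 9 of 45 members that passed in neither direction. MRPL34, the lower member with the greatest change, holds the NRF1 core and not the ETS core. Another copy of the NRF1 core lies outside the stretch shown, within chr19:17305707-17305775.
MRPL34 (chr19:17305607-17305675, plus): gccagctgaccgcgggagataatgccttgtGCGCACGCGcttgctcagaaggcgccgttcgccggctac

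The genes of the factors that bind these words were looked at as well. GABPA, NRF1 and YY1 were named for these words, outside the rule for named genes. GABPB1, a subunit of GABP, had 34.2, 42.0 and 47.5 CPM in the knockdown libraries, against 14.9, 14.8 and 13.3 CPM in the control libraries, and rose with a log2 fold change of 1.52 (edgeR, SE 0.15, adjusted p = 3.54e-07). GABPB2, the gene of another GABP subunit, also rose, by 1.01 on the log2 scale. Its log2 fold change was 0.81 to 1.17 with any 1 library left out. GABPA, the DNA-binding subunit, was near 1.82 CPM in the knockdown and 1.37 CPM in the control and did not pass (log2 fold change 0.38, edgeR, adjusted p = 0.427). NRF1 (log2 fold change -0.20, adjusted p = 0.279) and YY1 (0.24, adjusted p = 0.0988) did not pass either. MYC had 232, 224 and 237 CPM in the knockdown libraries, against 146, 143 and 170 CPM in the control libraries, and rose by 0.59 on the log2 scale (edgeR, SE 0.093, adjusted p = 6.73e-05). SP1, a general activator, had 90.9, 92.8 and 71.5 CPM in the knockdown libraries, against 171, 162 and 113 CPM in the control libraries (log2 fold change -0.80, edgeR, adjusted p = 0.000645). PPRC1, a coactivator of NRF1 targets, rose by 0.45 on the log2 scale (edgeR, adjusted p = 0.00183). Of the 10 regulators tested, 4 were higher and 1 was lower, or 50% called against 42.0% of all genes tested.

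By subunit, 12 of the 50 large-subunit members were higher and 6 lower, or 36.0% called, with a median log2 fold change of -0.015. In the small subunit, 3 of 25 were higher and 2 lower, or 20.0%, with a median of 0.073. Of the 45 tested members with a bacterial counterpart, 10 were higher and 4 lower, or 31.1% called, with a median of 0.0015. Of the 30 members special to mitochondria, 5 were higher and 4 lower, or 30% called, with a median of 0.012. Each of these shares lay below the 42.0% called among all genes tested. These splits were not tested against each other.

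The factor-recruiting stalk and its base had 1 lower member, MRPL53, among 5, or 20% called. MRPL12, the stalk protein that contacts the translation factors, had 110, 106 and 121 CPM in the knockdown libraries, against 123, 109 and 127 CPM in the control libraries. Its groups overlapped, and it did not pass (log2 fold change -0.089, SE 0.098, edgeR, adjusted p = 0.493). MRPL10, MRPL11 and MRPL54, the other proteins of this region, had log2 fold changes of -0.16, 0.14 and -0.049 and did not pass. Around the exit of the new chain, 3 of 9 members were higher (MRPL17, MRPL44 and MRPL47) and 0 were lower, or 33.3% called, below the 42.0% of all genes tested. MRPL45, which holds the ribosome to the inner membrane, had a log2 fold change of -0.068 (edgeR, adjusted p = 0.683). In the central protuberance 1 of 8 members was higher (MRPL46) and 1 lower (MRPL55), or 25% called.

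Per kilobase of exon, the levels of the members spanned more than 2 orders of magnitude. MRPL12, MRPL14 and MRPS34 were the most abundant by control level, at 109 ± 7.47, 120 ± 12.3 and 110 ± 5.06 RPKM (CPM divided by the exon length in kilobases) in the knockdown and 116 ± 9.32, 109 ± 14.9 and 108 ± 15.5 RPKM in the control (SD, n = 3). Their order is not resolved, since the differences between them are within the SDs. The lowest were MRPS24, MRPL23 and MRPL19, at 0.319, 0.463 and 1.34 RPKM in the knockdown and 0.264, 0.496 and 0.794 RPKM in the control. MRPL23 had 11, 9 and 16 reads in the knockdown libraries and 13, 10 and 22 reads in the control libraries, and its log2 fold change of -0.16 had an SE of 0.44, so that only a large change was detectable at this depth.

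MRPS24 had 10, 6 and 7 reads in the knockdown libraries and 1, 8 and 13 reads in the control libraries. The table also has a row for URGCP-MRPS24, a read-through transcript on the same strand that shares 23.2% of the exon bases of MRPS24. That row had 854, 768 and 580 reads in the knockdown libraries, against 831, 931 and 1245 reads in the control libraries, and how the counting split reads between these rows was not tested.

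Other members share sequence with neighbours or copies, and no strand setting for the counting is given. Among the tested members, 24 share over 10% of their exon bases with another gene, and 9 of these are among the 23 called. MRPL53 shares 45.2% with CCDC142 on the same strand, MRPL43 shares 32.7% with SEMA4G on the opposite strand, and MRPL51 shares 31.3% with NCAPD2 on the opposite strand. MRPL34 shares 13.2% with ABHD8 and MRPS12 shares 16.3% with SARS2, both on the opposite strand. SARS2, a mitochondrial tRNA synthetase, had 32.1, 34.8 and 32.6 CPM in the knockdown libraries, against 42.3, 41.8 and 45.6 CPM in the control libraries, and was lower by test (log2 fold change -0.38, edgeR, adjusted p = 0.0139), whereas MRPS12 was higher. NCAPD2, the neighbour of MRPL51, had 135, 86 and 39 reads in the knockdown libraries, against 242, 291 and 225 reads in the control libraries, and was lower by test (log2 fold change -1.47, edgeR, adjusted p = 7.69e-05), the same direction as MRPL51. CCDC142, SEMA4G and ABHD8 did not pass, with log2 fold changes of 0.41, 0.11 and -0.22. The values of the members named here are uncertain to the extent of the shared bases. The neighbours other than SARS2 were named outside the rule for named genes.

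The table holds 105 rows for pseudogenes of the members, of which 58 have no read and 4 were tested. MRPS31P4 had 4.29, 5.24 and 5.46 CPM in the knockdown libraries, against 9.01, 9.64 and 9.61 CPM in the control libraries, and MRPS36P1 had 2.56, 3.04 and 2.73 CPM in the knockdown libraries, against 5.67, 5.40 and 5.22 CPM in the control libraries. Both were named after their values were seen. Both fell, with log2 fold changes of -0.92 and -0.96 (edgeR, adjusted p = 0.00145 and 0.00488), while their parents MRPS31 and MRPS36 had log2 fold changes of 0.29 and 0.095 and did not pass. The reads of MRPS31P4 amount to 40.2% of those of MRPS31, and those of MRPS36P1 to 22.6% of those of MRPS36. Adding pseudogene reads to the parents left 15 members higher and 8 lower.

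The base composition of the mRNAs, which the rule did not use, moved with the fold changes. Across the 76 tested members Spearman's rho of the log2 fold change with mRNA GC content was -0.45, against -0.22 across 11628 tested coding genes, as a description across genes of the same 6 libraries. The higher members had a median GC content of 44.9% and the lower members one of 55.6%, against 50.7% for those that passed in neither direction. Of the 25 members with the lowest GC content (under 46.4%) 8 were higher and 0 lower, and of the 25 with the highest (over 52.8%) 1 was higher and 5 were lower. In the same GC ranges of all tested coding genes, 32.4% were higher and 14.5% lower at the low end, and 17.5% were higher and 25.9% lower at the high end.

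**Figure D3:**
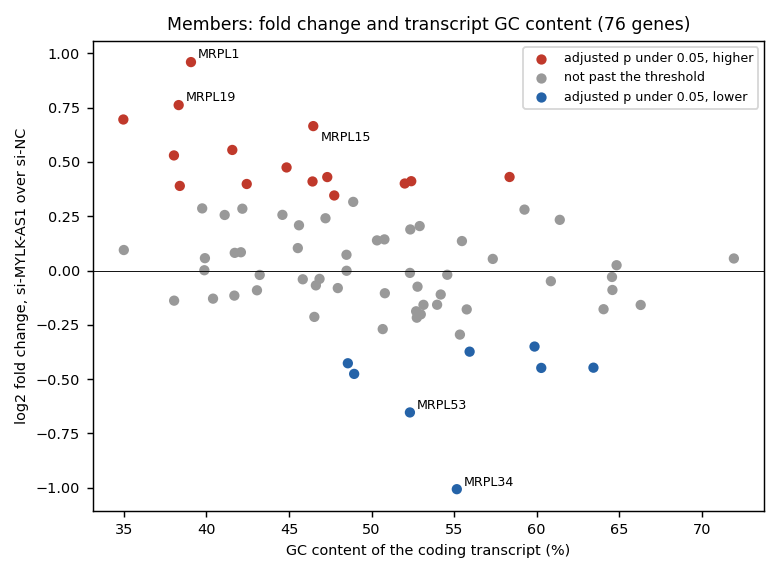
Log2 fold change of each tested mitochondrial ribosomal protein gene, si-MYLK-AS1 over si-NC, (vertical axis) against the GC content of its mRNA in percent (horizontal axis), coloured by call. Spearman's rho over the 76 members was -0.45, and the lower members lie at a median of 55.6% GC against 44.9% for the higher ones.

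Libraries of 1 group also differed along this axis. Across members, the deviation from the control mean had a rho with GC content of -0.25, -0.45 and -0.45 in si-MYLK-AS1 replicates 1 to 3, against -0.42, -0.33 and 0.60 in si-NC replicates 1 to 3. The control values are tied to each other because they share the mean, and si-NC replicate 3 went the opposite way from the other 2. Without si-NC replicate 3 the rho of the members' fold changes was -0.32, and the median log2 fold change of the members was 0.12 in place of 0.013. With a GC curve fitted for each library, 13 members were higher and 10 lower, and 18 of the 23 called members kept their call. The calls lost were those of MRPL3, MRPL19, MRPL42, MRPL47 and MRPL55, and the calls gained were those of MRPL16, MRPL22, MRPL40, MRPS2 and MRPS27. In that fit 30.3% of the members were called, against 46.6% of all genes in it. The median of the small subunit was 0.013 in place of 0.073. The part of GC content in single calls was not tested further. The rho with the control level in CPM was -0.33 for the members and -0.092 for all tested coding genes, and the rho with mRNA length was 0.18 for the members and 0.081 for all.

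The mitochondrial ribosome also needs proteins with other names. Of 6 such genes, 2 were higher and 0 lower, or 33.3% called, below the 42.0% of all genes tested. DAP3, a GTP-binding protein of the small subunit, had 199, 192 and 222 CPM in the knockdown libraries, against 133, 141 and 154 CPM in the control libraries. The groups were far apart, with a log2 fold change of 0.52 and an SE of 0.095 (edgeR, adjusted p = 0.000303). GADD45GIP1, a large-subunit protein, rose by 0.39 on the log2 scale (edgeR, adjusted p = 0.017), a call that was lost without si-MYLK-AS1 replicate 3 or si-NC replicate 2. AURKAIP1 had a log2 fold change of -0.22 and did not pass (edgeR, adjusted p = 0.0807).

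The rRNAs of the 2 subunits, both coded by mitochondrial DNA, moved in opposite directions. The small-subunit rRNA RNR1 averaged 1454 ± 345 CPM in the knockdown and 970 ± 51.7 CPM in the control (SD, n = 3), a log2 fold change of 0.58 (edgeR, adjusted p = 0.00208) that was 0.38 without si-MYLK-AS1 replicate 3. The large-subunit rRNA RNR2 averaged 12361 ± 1073 CPM in the knockdown and 15116 ± 629 CPM in the control, a log2 fold change of -0.29 (edgeR, adjusted p = 0.0202). The call of RNR2 was lost without si-MYLK-AS1 replicate 1 or 2 and without si-NC replicate 1 or 2. How well such rRNAs are captured depends on the library preparation, which the labels name only as a kit.

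The 13 mitochondrial messages, which the ribosome translates, were split as well, with 3 higher and 5 lower. Of these messages 61.5% were called, against 42.0% of all genes tested, and their median log2 fold change was -0.24. Their summed level was 49310 to 52185 CPM in the knockdown libraries, against 57255 to 63943 CPM in the control libraries. ND1, a subunit of complex I, averaged 2930 CPM in the knockdown and 1517 CPM in the control (log2 fold change 0.95, edgeR, adjusted p = 4.29e-07). ND4, another subunit of the same complex, averaged 4685 CPM in the knockdown and 7717 CPM in the control (log2 fold change -0.72, edgeR, adjusted p = 1.69e-05). COX1, the catalytic subunit of cytochrome oxidase, had a log2 fold change of -0.41 (edgeR, adjusted p = 0.0023). Without single libraries the number of higher messages was 1 to 4 and that of lower ones 4 to 6.

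Of 21 nuclear genes for mitochondrial transcription and RNA processing, 14 were higher and 0 lower, or 66.7% called against 42.0% of all genes tested. Their median log2 fold change was 0.50. Leaving out any 1 library left 12 to 14 higher and at most 1 lower, and a GC curve fitted for each library left 11 higher and 0 lower. FASTKD5, which processes mitochondrial transcripts, had 84.4, 88.6 and 93.6 CPM in the knockdown libraries, against 35.3, 40.3 and 34.7 CPM in the control libraries. The groups were far apart, and the log2 fold change was 1.27 with an SE of 0.11 (edgeR, adjusted p = 8.86e-08). MTERF1, which binds mitochondrial DNA and ends transcription, had 12.7, 14.4 and 21.4 CPM in the knockdown libraries, against 5.56, 4.53 and 4.48 CPM in the control libraries, a log2 fold change of 1.72 (edgeR, adjusted p = 8.61e-06). PNPT1, an RNA-degrading enzyme, MTPAP, the poly(A) polymerase, and TFAM, which packages the DNA and starts transcription, rose by 0.96, 0.74 and 0.72 on the log2 scale.

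Of 19 mitochondrial translation factors, 8 were higher and 1 lower, or 47.4% called, close to the 42.0% of all genes tested. Their median log2 fold change was 0.36. GFM1, the elongation factor that moves the tRNAs, had 63.3, 64.1 and 62.4 CPM in the knockdown libraries, against 40.2, 42.7 and 31.4 CPM in the control libraries. The knockdown libraries lay close together above all control libraries, with a log2 fold change of 0.73 (edgeR, adjusted p = 0.000136). GUF1, a related GTPase, and PDF, which deformylates the new chains, rose by 0.87 and 1.09 on the log2 scale (edgeR, adjusted p = 0.000391 and 0.00522). The number of higher factors was 5 without si-MYLK-AS1 replicate 1 or 3 and 4 without si-NC replicate 1. A GC curve fitted for each library left 4 higher and 2 lower.

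Of 30 genes for mitoribosome assembly and rRNA modification, 7 were higher and 5 lower, or 40.0% called, close to the 42.0% of all genes tested, with a median log2 fold change of 0.0998. RCC1L, an assembly factor of the large subunit, had 36.8, 39.1 and 39.5 CPM in the knockdown libraries, against 62.6, 65.2 and 65.6 CPM in the control libraries, and fell by 0.75 on the log2 scale (edgeR, SE 0.11, adjusted p = 2.99e-05). DDX28, a helicase of large-subunit assembly, had 34.0, 32.4 and 35.9 CPM in the knockdown libraries, against 15.6, 18.1 and 21.3 CPM in the control libraries, and rose by 0.89 (edgeR, SE 0.14, adjusted p = 7.53e-05). In both genes the groups did not overlap. FASTKD2, which binds the large-subunit rRNA, and MTG1, a GTPase of late assembly, rose by 0.92 and 0.68 on the log2 scale (edgeR, adjusted p = 0.000278 and 8.73e-05). The number of higher genes was 4 without si-MYLK-AS1 replicate 2, si-NC replicate 1 or si-NC replicate 2.

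Of 19 genes for mitochondrial tRNA charging that were tested, 3 were higher and 4 lower, or 36.8% called against 42.0% of all genes tested. Their median log2 fold change was -0.16. CARS2, for cysteine, had 63.6, 59.9 and 70.4 CPM in the knockdown libraries, against 33.8, 35.1 and 39.8 CPM in the control libraries, and rose by 0.83 on the log2 scale (edgeR, adjusted p = 2.33e-05). QRSL1, a subunit of the enzyme that makes the tRNA for glutamine, had 7, 4 and 0 reads in the knockdown libraries, against 20, 30 and 34 reads in the control libraries, and fell by 2.78 on the log2 scale (edgeR, SE 0.51, adjusted p = 0.000317). The groups did not overlap, but the knockdown reads are few and the size of the fitted fold change depends on the prior count. The number of lower genes was 2 without si-NC replicate 1, and that of higher genes 2 without si-NC replicate 2. For the cytosolic ribosome, 26 of 83 tested protein genes were higher and 5 lower, or 37.3% called, with a median of 0.17.

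**Figure D4:**
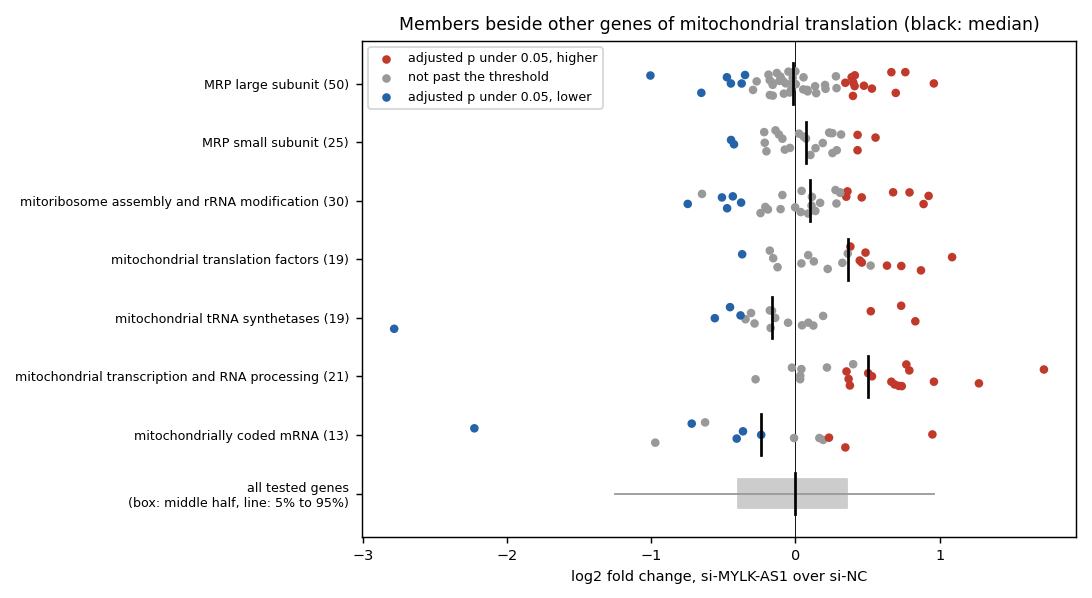
Log2 fold changes (horizontal axis, si-MYLK-AS1 over si-NC) of the members of each subunit and of 5 companion lists, with each gene as a point coloured by call and the median as a black line, above a box for all genes tested. The medians are -0.015 for the large subunit, 0.073 for the small subunit, 0.36 for the translation factors and 0.50 for transcription and RNA processing.

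The 53 members that did not pass were mostly measured well enough to bound their change. In 45 of them an approximate 95% interval of the log2 fold change lay within ±0.5, and in 52 within ±1. Members near the threshold included MRPS35 (log2 fold change 0.26, edgeR, adjusted p = 0.062), MRPS27 (-0.21, adjusted p = 0.065), MRPS23 (0.26, adjusted p = 0.0717), MRPL2 (-0.29, adjusted p = 0.0777) and MRPL40 (0.28, adjusted p = 0.0862), named after their values were seen. The knockdown and control libraries overlapped for MRPS23 and did not overlap for the other 4.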

How the data were processed

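RNA extracted with Trizol was made into libraries with an Ion Proton kit, per the labels. The authors deposited raw counts, 1 whole number for each gene symbol and library. Their build was GRCh38, as listed in the submitters' processing notes, and the sources used here do not state the aligner, the counting tool, the annotation or whether strand was used. The members and gene lists were chosen with earlier results of these data known.

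All 6 libraries entered 1 fit in edgeR 4.0.16 (R 4.3.3) with filterByExpr, TMM factors, robust quasi-likelihood dispersions and no block. Its two-sided F test was adjusted by Benjamini-Hochberg over 15391 genes at a threshold of 0.05, and the fit was tested on simulated data. CPM use TMM-adjusted library sizes, in which 3 reads correspond to 0.274 to 0.410 CPM, and RPKM divide them by the exon length in GENCODE 29. The SE was approximated as the log2 fold change over the square root of F. The common coefficient of variation between replicates was 11.8%. Libraries correlated at 0.981 to 0.988 (log2 CPM) within the knockdown, 0.986 to 0.992 within the control and 0.945 to 0.962 between them.

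Values per library were given for MYLK-AS1 and for the 8 members with the greatest change in each direction past the threshold. Also named were the highest and lowest members by RPKM, members with a named role, both mitochondrial rRNAs and MYC. The rule added up to 5 genes of lowest p in each other list. Some of these are given only as group means or fold changes. Names outside this rule are marked as such. Alternatives were RLE, upper quartile or no factors, no filter or a stricter one, DESeq2 1.42.0, limma-voom (limma 3.58.1), each library left out, a block on the repeat number, and stricter thresholds. Leaving out mitochondrially coded rows, adding pseudogene reads and a GC curve per library were chosen after seeing the data.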

Additional observations from a re-analysis of the deposited data

How the results depend on the processing

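No direction of a called member turned under any alternative, and 13 of 23 calls held in all 17 refits. Leaving out 1 library moved the count of higher members between 8 and 18, that of lower members between 6 and 9, and the median log2 fold change of the members between -0.025 and 0.12. The median of the large subunit moved between -0.057 and 0.087, that of the small subunit between 0.052 and 0.15 (0.013 with a GC curve per library), and the calls over all genes between 5173 and 6112. A threshold of 0.01 left 7 higher and 6 lower members, or 17.1% of those tested, against 28.4% of all genes tested. A minimum of 1.5-fold left 4 higher and 2 lower members, or 7.9%, and 4035 genes in all, or 26.2%. These stricter cuts lower the counts by construction. The labels do not say whether repeat numbers pair the libraries. Deviations from the group means correlated at -0.052, 0.078 and 0.064 between same-numbered libraries and at -0.12 to 0.069 between differently numbered ones. With 3 libraries per group these values cannot settle whether the libraries were paired. With the number as a replicate block 15 members were higher and 7 lower, without MRPL55. The member median was then 0.017 and 6521 genes were called. The limits are the 3 libraries per group from 1 cell line, a knockdown measured on few reads, unstated strand and annotation, and GC content that moves with the fold changes. Members under 10 reads in some library, MRPL23 and MRPS24, are beyond what this depth resolves.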
